A study of Mus musculus with 18 samples.

Results

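The entries mmu-mir-15a, mmu-mir-15b and mmu-mir-16, written without the species prefix below, are 3 of 1006 mouse miRNA precursors counted in 18 small RNA libraries. They were taken by name from the table of read counts, and all 3 passed the filter on low counts that left 273 precursors for testing. Each entry holds the reads of both hairpin arms, and the single mir-16 entry stands for 2 gene copies, mir-16-1 and mir-16-2. It was read as their sum, and how reads were added over the copies is not given in the sources used here. The cells were Baf3, a mouse pro B cell line kept in interleukin-3. They carried fluorescent reporters for the activity of altered forms of miR-15a and miR-16 and were transduced with Cas9 and a single guide RNA. Guides against Rag1 served as control, guides labelled SAFB1+2 targeted Safb1/2 (called SAFB here), and the remaining guides targeted Erh.

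Each genotype was made with 2 guides, giving 6 polyclonal populations, and each population gave 3 libraries in labelled batches 1 to 3, so every genotype had n = 6 libraries. SAFB and ERH cells were sorted because the miR-15a reporter was derepressed, so low miR-15a activity was part of how those cells were chosen. The labels do not say how control populations were sorted. Whether reads of the altered reporter-linked forms were counted under mir-15a or mir-16 is likewise not given. The p-values below measure the spread among libraries, and the 3 libraries of a population shared their edit and sort. In a polyclonal population, fewer cells with a full loss and a smaller loss in every cell cannot be told apart. Small RNA counts do not measure Safb, Safb2 or Erh mRNA, so loss of the targets was not checked here.

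MicroRNAs are cut from long primary transcripts as hairpins by Microprocessor, a complex of the nuclease Drosha and the RNA-binding protein Dgcr8, and then by Dicer. Some hairpins are poor Microprocessor substrates and are processed well only when a good hairpin lies next to them on the same transcript, which is called cluster assistance. The mir-15a hairpin, helped by its neighbour mir-16-1, is a standard example, and SAFB proteins and the small Microprocessor-associated protein ERH are known factors in that process. In lymphoid cells the mir-15 and mir-16 family is known for restraining cell cycle and survival genes such as cyclins and Bcl2.

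The mature sequences are shown because all 3 begin with the same seed, so that they are expected to recognise overlapping target sites, while the other bases let reads be told apart. Sequences are from RefSeq on mouse build GRCm38.p6, written 5′ to 3′, with the seed (bases 2 to 8) in capitals.
miR-15a: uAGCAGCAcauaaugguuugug
miR-15b: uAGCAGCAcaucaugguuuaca
miR-16: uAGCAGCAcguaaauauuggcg
Over 22 bases counted from the 5′ end, miR-15a and miR-15b differed at 4 positions, with the miR-15a base given first: A12C, G20A, U21C and G22A. miR-15a and miR-16 differed at 6 positions and miR-15b and miR-16 at 8, the first of them at position 10 in both cases. Full-length reads of the 3 mature miRNAs therefore had at least 4 bases to separate them. Between miR-15a and miR-15b position 12 was the only difference before base 20, so reads short at the 3′ end had fewer. How near matches were counted is not given in the sources used here.

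The hairpins of mir-15b and both mir-16 copies are shown because they explain what the mir-16 entry can and cannot separate. Capitals mark the mature arms.
Mir15b: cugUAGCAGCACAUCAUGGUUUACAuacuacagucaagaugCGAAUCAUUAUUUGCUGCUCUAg
Mir16-1: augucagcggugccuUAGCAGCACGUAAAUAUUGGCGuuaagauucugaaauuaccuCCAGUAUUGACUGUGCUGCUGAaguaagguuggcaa
Mir16-2: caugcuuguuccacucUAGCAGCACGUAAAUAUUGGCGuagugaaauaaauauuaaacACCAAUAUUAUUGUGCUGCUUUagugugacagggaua
Both mir-16 copies hold the same mature 5′ arm, while their mature 3′ arms differ, as do loop and flanks. Reads of the 5′ arm thus cannot be assigned to a locus, and the mir-16 entry was read as the sum of 2 loci. On that reading, each ratio to mir-16 below sets a hairpin against its own neighbour plus the copy at the other locus.

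In the GENCODE annotation of build GRCm38, Mir15a lies at chr14:61632027-61632110 on the minus strand within an intron of the non-coding host gene Dleu2. Mir16-1 lies at chr14:61631880-61631972 on the same strand, overlaps an annotated exon of Dleu2, and is separated from Mir15a by 54 bases. Mir15b lies at chr3:69009772-69009835 on the plus strand within an intron of Smc4, which encodes a condensin subunit. Mir16-2 lies at chr3:69009902-69009996 in an intron of Smc4, 66 bases from Mir15b. In both clusters the mir-15 hairpin comes first on the transcript and the mir-16 hairpin follows.

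Library totals ran from 2699323 to 4470073 miRNA counts, and 396 to 455 precursors had at least 1 count. Of 7 miRNAs listed as markers of blood cells, 6 were in the table and all 6 had counts in every genotype. In CPM (counts relative to library size, with library sizes adjusted by TMM, the trimmed mean of M-values) their summed level was 148757 to 175268 in control, 153374 to 170967 in SAFB and 125375 to 158051 in ERH libraries, most of it mir-142a. Single markers went different ways: in control, SAFB and ERH cells mean mir-181b was 1131, 192.4 and 729.8 CPM, mir-181a 3114, 4662 and 4119, mir-223 9611, 17414 and 9214, mir-155 1754, 1609 and 1350, and mir-150 19.3, 4.91 and 9.29. The summed level of a neural list was 1826 to 2229 CPM in control, 2143 to 2815 in SAFB and 2333 to 3057 in ERH libraries, of which mir-128 made up most. In it mir-9 rose from 9.06 CPM in control to 65.9 in SAFB and 259.7 in ERH cells (adjusted p = 2.8e-09 and 2.6e-13 by edgeR), while mir-124 had 0 counts in control and at most 6 in the knockouts. Of the other lists, the epithelial one summed to 145.3 to 222.3 CPM, the stromal one to at most 44.4, the muscle one to at most 5.80, and liver mir-122 averaged 6.78, 11.6 and 17.1 CPM in control, SAFB and ERH cells. The part of these marker differences in the results below was not tested.

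mir-15a, the assisted hairpin whose altered form the reporter follows, fell in both knockouts, and further in SAFB than in ERH cells. Control libraries held 2735 to 4163 mir-15a counts, or 947.1 CPM in the lowest, 1066 at the median and 1146 in the highest library. SAFB libraries held 263 to 394 counts, with 73.3 CPM in the lowest, 82.5 at the median and 107.9 in the highest. ERH libraries held 418 to 836 counts, with 139.2 CPM in the lowest, 171.2 at the median and 225.4 in the highest. The genotypes formed 3 separate ranges, with every ERH library above every SAFB library and below every control library. The share of tested precursors whose ranges were likewise separate was not counted, so separate ranges are given here and below as description only. The smallest count, 263 in SAFB guide 2 batch 2, was 0.00704% of that library with a 95% Wilson interval of 0.00624% to 0.00794%, so counting error was small beside the distance between genotypes. Intervals of this kind cover counting error only.

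Mean mir-15a levels were 1067 ± 76.9 CPM in control, 87.2 ± 14.1 in SAFB and 177.2 ± 38.5 in ERH cells (SD, n = 6 each). edgeR's quasi-likelihood test gave a log2 fold change of -3.61 (SE 0.14) in SAFB cells, a 12.2-fold lower level, with a Benjamini-Hochberg adjusted p of 1.1e-16. In ERH cells it was -2.59 (SE 0.13), a 6.02-fold lower level, with an adjusted p of 3.8e-14 by the same test. mir-15a had the second lowest fold change of 273 tested precursors in SAFB cells and rank 4 in ERH cells. The SAFB knockout changed 56% of all tested precursors at an adjusted p under 0.05, with 25.3% lower, and the ERH knockout 53.8%, with 27.5% lower. A call alone was thus common in these cells. In SAFB cells 1 precursor fell further than mir-15a and 4 rose by more than it fell; in ERH cells 3 fell further and 37 rose by more, so the size of its change was rare among falls but not among all changes in ERH cells.

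mir-15b, the sister hairpin in Smc4, also fell in both knockouts. Control libraries held 12405 to 20407 mir-15b counts, or 4287 CPM in the lowest, 5095 at the median and 5379 in the highest library. SAFB libraries held 1731 to 2687 counts, with 498.9 CPM in the lowest, 622.3 at the median and 712.3 in the highest. ERH libraries held 1431 to 2110 counts, with 416.2 CPM in the lowest, 519.3 at the median and 614.8 in the highest. Both knockouts lay far below control, and the SAFB and ERH ranges overlapped.

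Mean mir-15b levels were 4961 ± 404.6 CPM in control, 611.9 ± 72.8 in SAFB and 516.5 ± 68.7 in ERH cells (SD, n = 6 each). The log2 fold change was -3.02 (SE 0.098) in SAFB cells, an 8.11-fold lower level, and -3.26 (SE 0.099) in ERH cells, a 9.61-fold lower level. The adjusted p-values by edgeR were 1.2e-17 and 3.2e-18. On this TMM scale ERH cells had the lower mean, the reverse of the order seen for mir-15a, but the ERH minus SAFB difference turned to 0.022 under total counts and 0.31 under spike-ins. mir-15b ranked 5 from the lowest fold change in SAFB cells and second in ERH cells, behind mir-425 alone. By mean level among tested precursors it moved from rank 32 in control to 65 in SAFB and 71 in ERH cells, and mir-15a from rank 63 to 113 and 103. In SAFB cells 25 precursors rose by more than mir-15b fell, and in ERH cells 33 did. The size of the mir-15b change was thus rare among falls but not among all changes.

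mir-16, the neighbour at both loci, had the highest mean of all tested precursors in every genotype. Control libraries held 724828 to 1035991 mir-16 counts, SAFB libraries 1024894 to 1371109 and ERH libraries 662351 to 1009822. It took 24.8% ± 0.838 of all miRNA counts in control libraries, 29.6% ± 0.729 in SAFB libraries and 25.3% ± 0.633 in ERH libraries (SD, n = 6 each). SAFB shares, from 28.7% to 30.7%, lay above all others, while control and ERH shares overlapped.

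On the TMM scale mir-16 ran from 253223 CPM in the lowest control library through a median of 274145 to 277170 in the highest. The SAFB libraries had 291427, 314174 and 328960 CPM as lowest, median and highest, and the ERH libraries 201986, 224598 and 242005. The 3 genotypes did not overlap on this scale, with SAFB highest and ERH lowest. edgeR gave a log2 fold change of 0.21 (SE 0.047, adjusted p = 0.00053) in SAFB cells, where 30.8% of tested precursors were called higher. In ERH cells it gave -0.27 (SE 0.047, adjusted p = 2.8e-05), but 0.028 (adjusted p = 0.41) when libraries were scaled by total counts and -0.0016 (adjusted p = 0.99) when scaled by spike-ins, so the direction depended on the scaling. In SAFB cells total counts gave 0.25 (adjusted p = 8.9e-08) and spike-ins -0.057 (adjusted p = 0.86). These mir-16 values also moved with single populations on the TMM scale: without SAFB guide 1 the SAFB value was 0.45, and the ERH value was -0.17 without SAFB guide 1 and -0.18 without SAFB guide 2.

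**Figure D1:**
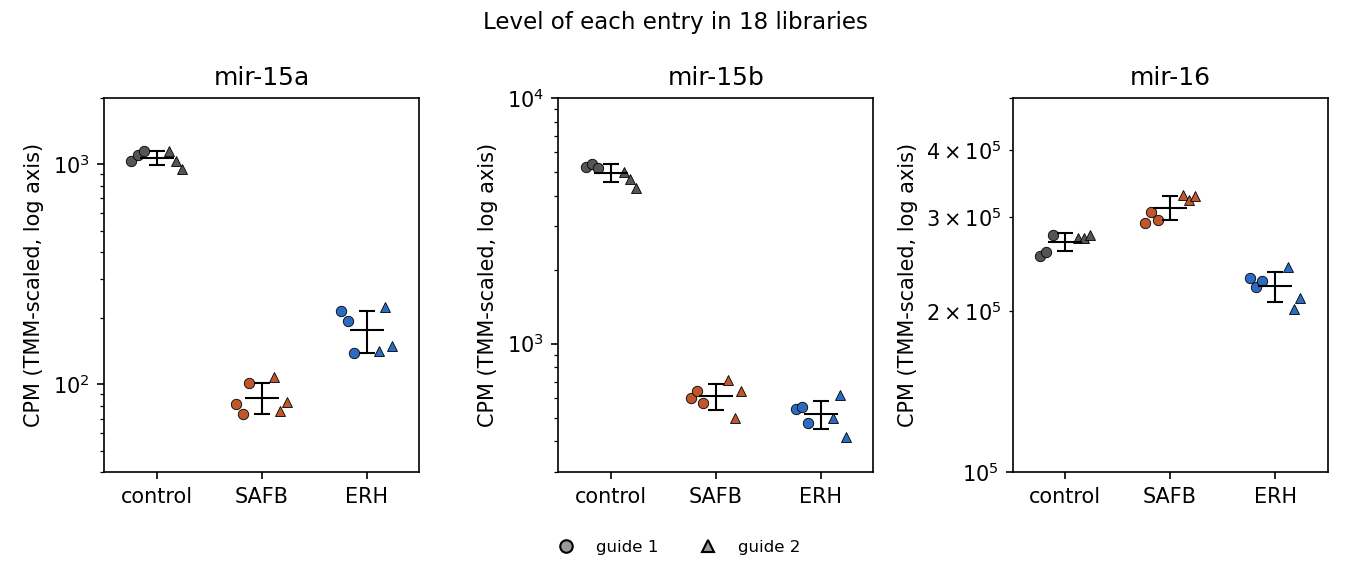
Level of mir-15a, mir-15b and mir-16 in each library, in TMM-scaled CPM on a log axis, by genotype, with circles for guide 1 and triangles for guide 2; horizontal bars and error bars are the mean and SD of 6 libraries. mir-15a forms 3 separate ranges, mir-15b falls to overlapping ranges in SAFB and ERH, and mir-16 stays between 201986 and 328960.

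Set directly against each other, ERH and SAFB cells differed for mir-15a, and here the adjusted fit called 39.6% of all tested precursors, 23.8% higher and 15.8% lower in ERH cells. mir-15a was 2.03-fold higher in ERH than in SAFB cells, with a log2 difference of 1.02 (SE 0.13, adjusted p = 1.2e-06 by edgeR). The mir-15a difference was larger under total counts (1.29) and spike-ins (1.55). mir-15b was lower in ERH cells by a small amount, at -0.24 (SE 0.091, adjusted p = 0.037 by edgeR). That call was lost on leaving out any of 3 of 6 populations (ERH guide 1, ERH guide 2 or SAFB guide 2) or any of 8 of 18 single libraries (SAFB guide 1 batches 1 and 2, and batches 1 and 3 of SAFB guide 2, ERH guide 1 and ERH guide 2), with values from -0.33 to -0.19 over all libraries and populations left out. Its sign turned under total counts (0.022) and spike-ins (0.31). mir-16 was lower in ERH cells at -0.49 (SE 0.047, adjusted p = 2.9e-08 by edgeR), a difference of -0.23 under total counts and 0.055 under spike-ins.

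**Figure D2:**
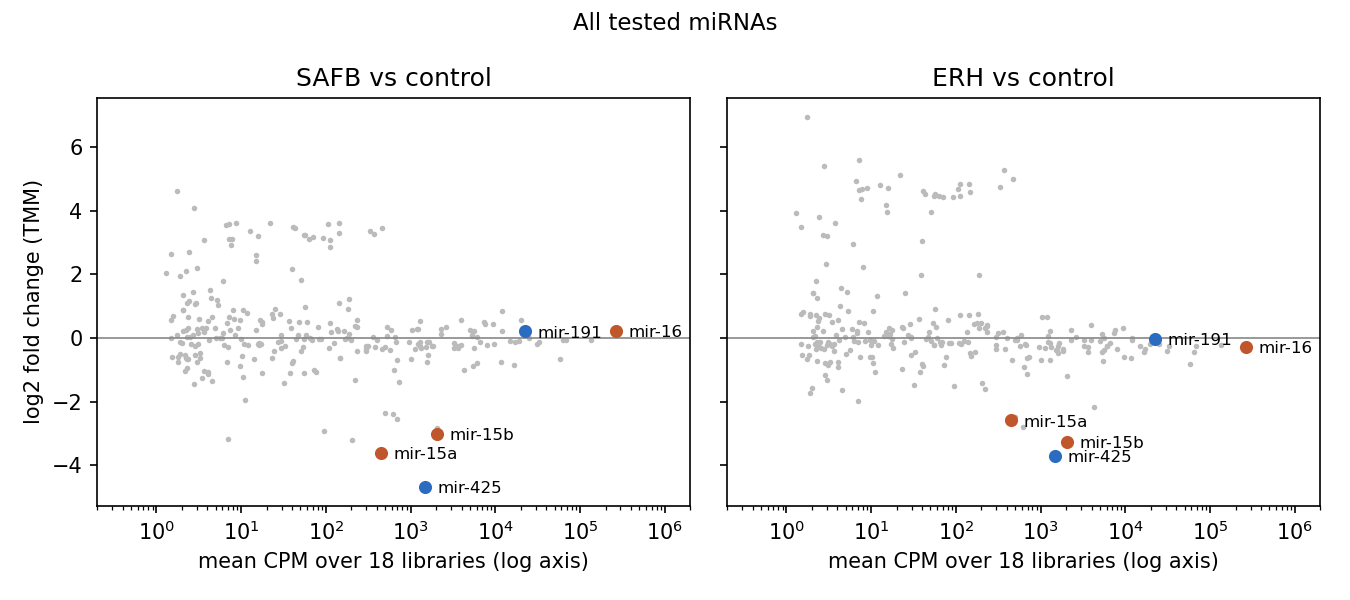
Log2 fold change of each of the 273 tested precursors against its mean CPM over 18 libraries (log axis), for SAFB against control and ERH against control, with mir-15a, mir-15b and mir-16 in orange and mir-425 and mir-191 in blue. mir-15a at -3.61 and -2.59 and mir-15b at -3.02 and -3.26 lie at the lower edge of both clouds, below most other precursors, and mir-16 lies near 0 at the far right.

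A fit on the 3 summed libraries of each population, with 2 populations per genotype, gave mir-15a -3.61 in SAFB and -2.57 in ERH cells, with adjusted p-values of 5.5e-15 and 2.0e-13 by edgeR. It gave mir-15b -3.01 and -3.25, with adjusted p-values of 5.5e-15 and 2.4e-15. The sizes hardly moved when populations replaced libraries as the unit. For mir-16 this fit gave 0.22 (adjusted p = 0.047) and -0.26 (adjusted p = 0.020), both nearer the threshold. mir-15b in ERH against SAFB cells had an adjusted p of 0.070 in this fit and did not pass.

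A ratio of 2 entries counted in the same library is free of any scaling, and it sets each mir-15 hairpin against mir-16. Control libraries held 3.42 to 4.25 mir-15a reads for every 1000 mir-16 reads, with a median of 4.11. SAFB libraries held 0.236 to 0.342, with a median of 0.267, and ERH libraries 0.586 to 1.12, with a median of 0.790. No range met another, and the lowest ERH library had more mir-15a per mir-16 read than the highest SAFB library. Means were 3.97 ± 0.318, 0.280 ± 0.0459 and 0.804 ± 0.206 mir-15a reads per 1000 mir-16 reads (SD, n = 6 each).

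The log2 ratio of mir-15a to mir-16 differed from control by -3.84 (SE 0.11) in SAFB cells, 14.3-fold lower, and by -2.34 (SE 0.16) in ERH cells, 5.06-fold lower. The ratio was 2.83-fold higher in ERH than in SAFB cells, a log2 difference of 1.50 (SE 0.18). Each of these 3 differences had p = 0.0022 in an exact two-sided permutation test of 6 against 6 libraries, the smallest that 924 arrangements can give, and 0.0024 after Benjamini-Hochberg adjustment over 9 tests. Within batches 1, 2 and 3 the ERH minus SAFB difference was 1.28, 2.06 and 1.16, so the direction was the same in each. The gap was widest in batch 2, where the SAFB ratios were low and the ERH guide 2 ratio was the highest of its genotype.

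mir-15b against mir-16 gave 15.5 to 20.8 mir-15b reads per 1000 mir-16 reads in control libraries, with a median of 18.5. SAFB libraries held 1.55 to 2.17, with a median of 2.01, and ERH libraries 1.97 to 3.04, with a median of 2.22. The knockout ranges lay well under control and overlapped each other. The highest ERH value, 3.04, belonged to guide 2 batch 2, and the lowest SAFB value, 1.55, to guide 2 of the same batch.

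The log2 ratio of mir-15b to mir-16 differed from control by -3.24 (SE 0.097) in SAFB cells, 9.43-fold lower, and by -2.99 (SE 0.12) in ERH cells, 7.97-fold lower, each with an exact permutation p of 0.0022 (adjusted 0.0024). The within-batch values were -3.20, -3.39 and -3.13 for SAFB and -3.14, -2.78 and -3.07 for ERH. Between the knockouts the difference was 0.24 (SE 0.12) with an exact permutation p of 0.065 (adjusted 0.065), and did not pass. By batch it was 0.055, 0.61 and 0.062, so most of it came from batch 2. With batch as a replicate block, permuting within batches, the same difference of 0.24 had an exact p of 0.046 (adjusted 0.046). It also passed without ERH guide 2 batch 1 (0.28) or ERH guide 2 batch 3 (0.29).

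**Figure D3:**
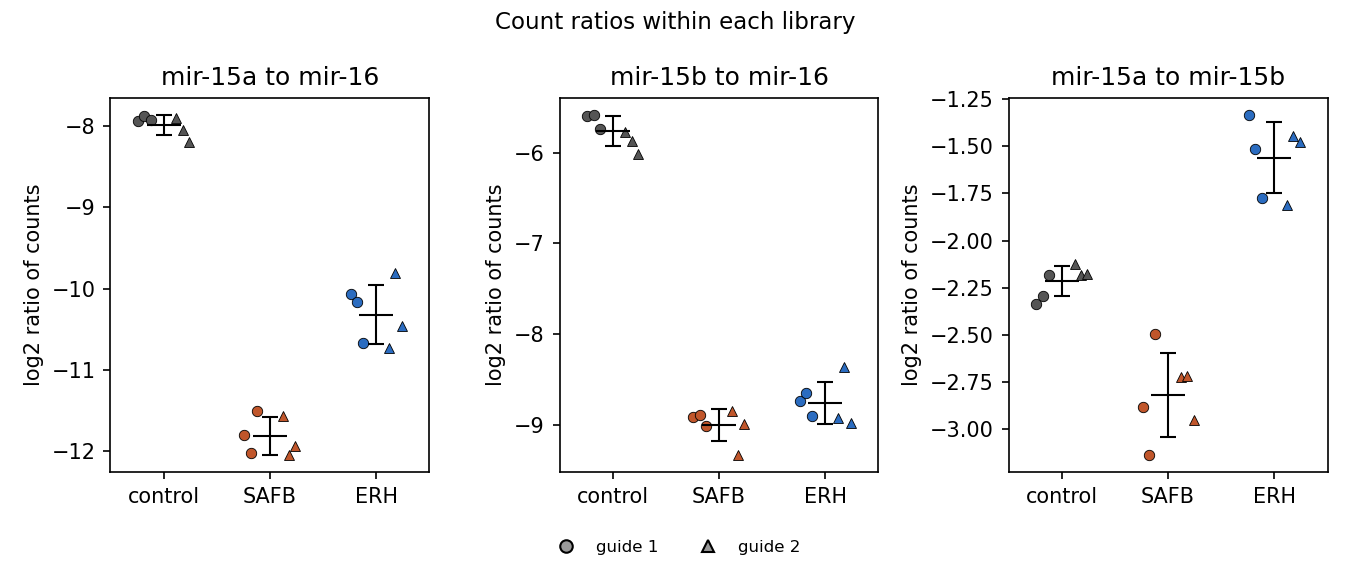
Log2 ratio of counts within each library for mir-15a to mir-16, mir-15b to mir-16 and mir-15a to mir-15b, by genotype, with circles for guide 1 and triangles for guide 2; bars are mean and SD of 6 libraries. The third panel shows SAFB below and ERH above control, with means of -2.82, -1.56 and -2.22 for SAFB, ERH and control.

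The balance between mir-15a and mir-15b shifted in opposite directions in SAFB and ERH cells. In control cells there were 19.8 to 22.9 mir-15a reads for every 100 mir-15b reads, with a mean of 21.6 ± 1.18 (SD, n = 6). In SAFB cells there were 11.4 to 17.7, with a mean of 14.3 ± 2.19, and in ERH cells 28.5 to 39.6, with a mean of 34.1 ± 4.38. All 6 SAFB libraries were below all 6 control libraries, and all 6 ERH libraries were above them. mir-15a thus lost more than mir-15b in SAFB cells and less than mir-15b in ERH cells.

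On the log2 scale the mir-15a to mir-15b ratio fell by 0.60 (SE 0.096) in SAFB cells, 1.52-fold lower, and rose by 0.66 (SE 0.084) in ERH cells, 1.57-fold higher. ERH and SAFB cells differed by 1.26 (SE 0.12), or 2.39-fold. Each had an exact permutation p of 0.0022 (adjusted 0.0024). In batches 1, 2 and 3 the SAFB difference was -0.57, -0.69 and -0.54 and the ERH difference 0.66, 0.76 and 0.55. Over the 4 pairings of a knockout population with a control population it ran from -0.68 to -0.53 in SAFB and from 0.58 to 0.73 in ERH cells, so both directions were seen with each guide. Library spread was wider in the knockouts than in control, at SDs of 2.19 and 4.38 against 1.18 mir-15a reads per 100 mir-15b reads.

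Guides of the same genotype were compared to see how far separately edited populations stood apart. Over the 3 ratios and 3 genotypes, guide 2 minus guide 1 ran from -0.24 to 0.11 on the log2 scale. The extreme, mir-15b to mir-16 in control, had an exact permutation p of 0.1 (adjusted 0.9), which is the smallest that 3 against 3 libraries can give. In edgeR the members' guide differences all missed the threshold, with adjusted p-values from 0.79 to 0.99, as did nearly the whole table, with 0 of 273 precursors called in control, 0 in SAFB and 1 in ERH cells. mir-16 in SAFB cells came nearest, at 0.13 (SE 0.065, unadjusted p = 0.057), with all 3 guide 2 libraries, from 321799 to 328960 CPM, above all 3 guide 1 libraries, from 291427 to 306550. In these ratios and on the TMM scale, guide differences were small beside the knockout differences of mir-15a and mir-15b. They were closer in size to the knockout differences of mir-16. Over spike-ins the guides stood further apart for mir-16, as given below.

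The labels state that a defined mix of 4 synthetic RNAs was added to a fixed amount of total RNA, so counts over spike-in counts give a level per total RNA. Against the spike-ins mir-15a was lower by a log2 difference of -3.86 (SE 0.22) in SAFB and -2.34 (SE 0.25) in ERH cells, and mir-15b by -3.26 (SE 0.17) and -2.99 (SE 0.23). Between the knockouts, mir-15a stood higher in ERH cells by 1.52 (SE 0.26). These 5 differences had an exact permutation p of 0.0022 (adjusted 0.0039 over 9 tests). mir-15b in ERH against SAFB cells differed by 0.26 (SE 0.24, exact permutation p = 0.29, adjusted 0.44), with overlapping ranges.

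For mir-16 over spike-ins the log2 ratio ran from 6.22 to 7.24 in control, 6.31 to 6.87 in SAFB and 6.15 to 7.29 in ERH libraries, and all 3 ranges overlapped. The difference from control was -0.021 (SE 0.19, exact permutation p = 0.92) in SAFB and 0.00074 (SE 0.24, exact permutation p = 0.998) in ERH cells. Missing the threshold does not show equal levels, since the spread between libraries was wide, with SDs of 0.42, 0.22 and 0.40. Part of that spread lay between guides. Control libraries ran from 6.22 to 6.52 with guide 1 and from 6.96 to 7.24 with guide 2. ERH libraries ran from 6.15 to 6.65 with guide 1 and from 6.67 to 7.29 with guide 2. The SAFB guides overlapped, at 6.31 to 6.80 and 6.54 to 6.87. Between 0.165% and 0.366% of counts belonged to spike-ins. The loss of mir-15a and mir-15b was many times that spread.

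Scaling moved the whole table as well as the members. The median log2 fold change of all tested precursors was 0.0083 in SAFB and -0.061 in ERH cells under TMM, and -0.23 and 0.23 under spike-ins. mir-15a ran from -3.85 to -3.57 in SAFB and from -2.59 to -2.28 in ERH cells over TMM, DESeq2 size factors, total counts and spike-ins. mir-15b ran from -3.26 to -2.97 in SAFB and from -3.26 to -2.95 in ERH cells. Every one of these mir-15a and mir-15b values had an adjusted p under 0.05, while mir-16 passed in both knockouts under TMM and DESeq2 size factors, in SAFB alone under total counts, and in neither under spike-ins.

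**Figure D4:**
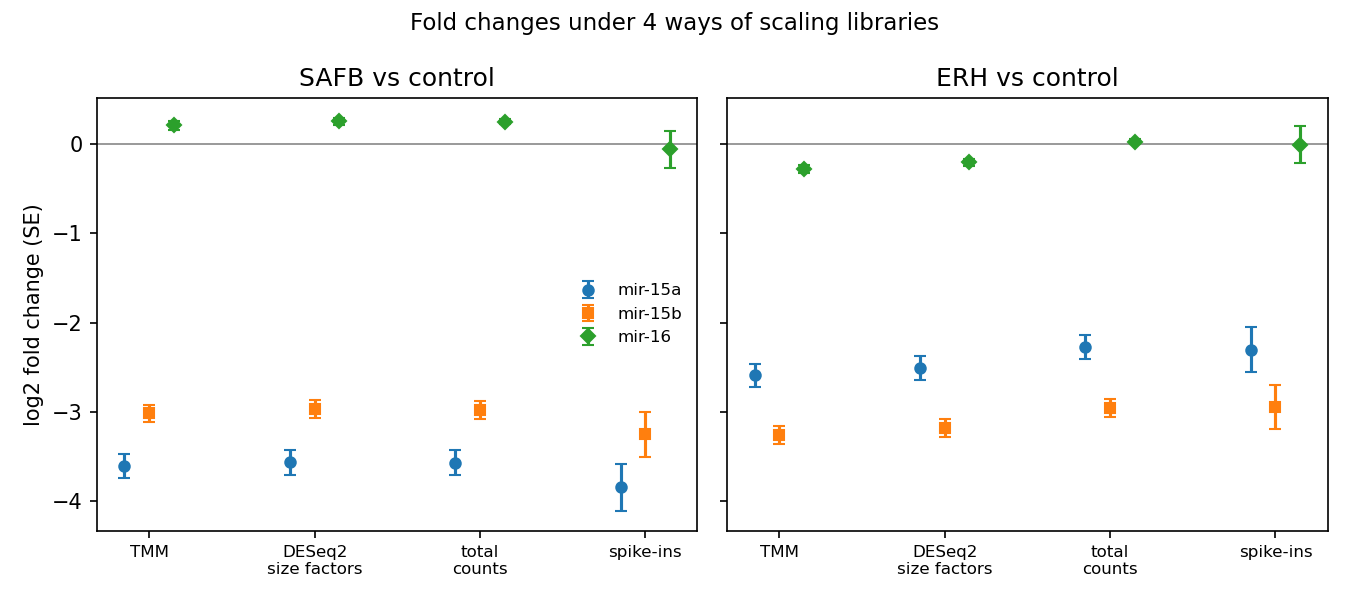
Log2 fold change with SE (edgeR) of mir-15a (circles), mir-15b (squares) and mir-16 (diamonds) in SAFB and ERH cells against control, when libraries are scaled by TMM, DESeq2 size factors, total counts or spike-ins. mir-15a and mir-15b stay between -3.85 and -2.28 throughout, and mir-16 stays between -0.27 and 0.26 around the zero line.

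The seed AGCAGCA was shared by 10 entries of the table, counted from RefSeq mature sequences. Other than the 3 members, mir-195a, mir-322 and mir-497a passed the filter, mir-195b had at most 5 counts in any library, and mir-6342, mir-6353 and mir-6419 had none. mir-503, which lies next to mir-322 and carries the related seed AGCAGCG, was added to them. Relatives with enough counts are shown so that their seeds, the same as that of miR-15a except in miR-503, can be read beside the rest of each sequence.
miR-195a: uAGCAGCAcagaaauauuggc
miR-322: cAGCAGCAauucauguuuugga
miR-497a: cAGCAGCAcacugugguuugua
miR-503: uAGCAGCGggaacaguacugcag
Of these 4 relatives, 3 were called lower and 0 higher in each knockout under TMM, where 25.3% (SAFB) and 27.5% (ERH) of all tested precursors were called lower, and the median of their log2 fold changes was -0.27 (SAFB) and -0.37 (ERH) against 0.0083 and -0.061 over all tested precursors. Under spike-ins 1 of the 4 was called lower in SAFB and 0 in ERH cells, where 21.2% and 6.96% of all tested precursors were. Under total counts the numbers were 3 and 1 of 4, against 24.2% and 12.1% of all. Each of these values was much smaller than those of mir-15a and mir-15b.

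mir-195a, a relative with the same seed, moved most of the 4. Control libraries held 1253 to 1395 CPM of mir-195a, SAFB libraries 729.1 to 992.3 and ERH libraries 759.5 to 893.2, and both knockouts lay below control. Its log2 fold change was -0.66 (SE 0.074, adjusted p = 6.8e-08 by edgeR) in SAFB and -0.69 (SE 0.074, adjusted p = 2.6e-08 by edgeR) in ERH cells. mir-497a gave -0.28 and -0.39 and mir-503 gave -0.25 and -0.36, each past the threshold in edgeR. mir-322 gave -0.13 and -0.16 and did not pass, with adjusted p-values of 0.31 and 0.22. In ERH cells mir-195a was -0.39 under total counts (adjusted p = 5.2e-05 by edgeR) and -0.39 under spike-ins, where it did not pass (adjusted p = 0.20). There mir-322 turned to 0.14 under total counts and 0.15 under spike-ins, and mir-497a and mir-503 did not pass under either scaling. In SAFB cells mir-195a passed under spike-ins (-0.91, adjusted p = 0.00045), while mir-497a (adjusted p = 0.0504) and mir-503 (adjusted p = 0.061) did not.

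Entries with this seed made up 26.3% ± 0.770 of control counts, 30.5% ± 0.769 of SAFB counts and 26.4% ± 0.616 of ERH counts (SD, n = 6 libraries each). These entries hold reads of both arms, so not every counted read need carry the seed. Of their counts, mir-15a and mir-15b together supplied 2.12% ± 0.210 in control libraries. In SAFB libraries they supplied 0.218% ± 0.0233 and in ERH libraries 0.301% ± 0.0561. Most counts of these entries were mir-16 in every genotype. The share of the library in these entries was thus not lower in either knockout than in control while the mir-15 hairpins dropped. Only shares of counts were compared here, and on the TMM scale mir-16 was lower in ERH cells (log2 fold change -0.27).

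The mir-425 and mir-191 pair holds another hairpin that fell beside a neighbour that was not called. It was picked with its fall already known, and mir-425 had the lowest fold change of all 273 tested precursors in both knockouts (-4.69 and -3.72), so the values below are a description and carry no test. The log2 ratio of mir-425 to mir-191 averaged -2.45 ± 0.30 in control libraries, -7.32 ± 0.37 in SAFB libraries and -6.16 ± 0.54 in ERH libraries (SD, n = 6 each). Like mir-15a to mir-16, this ratio was lowest in SAFB cells.

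The change from control in the mir-15a to mir-16 ratio was smaller than that of the mir-425 to mir-191 ratio by 1.04 (SE 0.19) in SAFB and 1.38 (SE 0.25) in ERH cells on the log2 scale. For mir-15b to mir-16 it was smaller by 1.64 (SE 0.25) in SAFB and 0.72 (SE 0.27) in ERH cells, the latter being 1.16, 0.16 and 0.84 in batches 1, 2 and 3. Set against the mir-425 ratio, the ERH minus SAFB difference was 0.34 (SE 0.23) for mir-15a and -0.92 (SE 0.28) for mir-15b. The mir-15b ratio thus showed little of the step between knockouts that the mir-15a and mir-425 ratios had.

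mir-451a, which is processed with help from mir-144 in red cell precursors, had at most 6 counts in any library and mir-144 at most 2, so that assisted pair could not be compared in these cells.

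The entries most like each member were named by the highest Pearson r of log2 CPM over 18 libraries among 152 candidates with a mean of at least 100 counts. Such r values are a description, since the libraries share genotypes and scaling. For mir-15a these were mir-425 (r = 0.986), mir-27b (r = 0.962) and mir-421 (r = 0.956). mir-421 had 190.2 ± 12.3 CPM in control, 24.7 ± 3.59 in SAFB and 66.7 ± 6.82 in ERH cells, the same order of genotypes as mir-15a. For mir-15b they were mir-130b (r = 0.995), mir-98 (r = 0.988) and let-7f (r = 0.984). mir-130b had 1079 ± 104.8, 208.4 ± 11.6 and 192.7 ± 20.6 CPM, with ERH below SAFB in the mean on the TMM scale, as for mir-15b on that scale. mir-98 and let-7f have close sequences, and how their reads were split is uncertain. For mir-16 the r values were lower, with let-7j (r = 0.900), mir-146b (r = 0.892) and mir-449a (r = 0.852).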

How the data were processed

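The authors deposited raw whole-number counts of reads (1006 miRNA precursors, 4 spike-ins) in 18 libraries made from total RNA with a QIAGEN miRNA kit, per the labels. The submitters' processing notes name SAMtools. The aligner, genome build, miRNA annotation, treatment of reads matching several precursors, and collapsing of molecular identifiers are not given in the sources used here, so reads may not be independent molecules.

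Counts were tested with edgeR 4.0.16 (quasi-likelihood test, R 4.3.3, limma 3.58.1), TMM scaling, filterByExpr with a minimum count of 10 by population, and 1 mean per genotype over 18 libraries. Benjamini-Hochberg adjustment ran over all 273 tested precursors, and an adjusted p below 0.05 made a call. Standard errors were derived as log2 fold change over root F. Spike-ins stayed out of library sizes and tests, except under spike-in scaling. Log2 count ratios were compared by exact two-sided permutation tests (NumPy 2.4.6), and Wilson intervals were computed with SciPy 1.17.1. DESeq2 1.42.0, other scalings, no filter, population sums, a pseudocount of 1, the batch block and each population or library left out were alternatives. The edgeR script was tested on simulated data. Within a population, libraries differed beyond counting error (chi-square over its degrees of freedom 27.5 to 157.1, 18 pairs).

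Batch numbers come from the labels and link libraries of different populations; the mean correlation of residuals around the population means was 0.031 within a batch (45 pairs) and -0.015 between batches (90 pairs). Loci came from GENCODE M21 (GRCm38), which may not be the authors' build. The members, the seed relatives, the mir-425 pair, the marker lists and the rule of likeness were chosen with earlier results of these data known. Named were the 3 members, entries sharing their seed with mir-503, mir-451a and mir-144, mir-425 and mir-191, the 3 entries most like each member, and single markers from the lists, which were picked after their values were seen.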

Additional observations from a re-analysis of the deposited data

Results flagged for a closer look

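The log2 ratio of mir-15b to mir-16 in SAFB guide 2 batch 2 was -9.33, the lowest of its genotype. The other 5 SAFB libraries lay between -9.02 and -8.85, and the gap to the nearest was 0.660 of the whole range, above the 95% limit of Dixon's test for 6 libraries. It was the single outlying value among 33 groups examined, and chance gives about 1 in 20.

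The knockouts differed in mir-15a relative to its partners. The log2 ratio of mir-15a to mir-16 was 1.50 higher in ERH than in SAFB cells, and that of mir-15a to mir-15b was 1.26 higher, each with an exact permutation p of 0.0022.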

How the results depend on the processing

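Of 27 results tested under alternatives that could pass the threshold, 18 kept their direction and their side of it in every such alternative, among them each mir-15a and mir-15b fold change and ratio to mir-16 against control. Over 756 such values, 712 did so. The mir-15b difference between ERH and SAFB, -0.24 by edgeR, did not pass with DESeq2 size factors (-0.21), the DESeq2 test (-0.21) or population sums (-0.24), was 0.022 under total counts and 0.31 under spike-ins, and ran from -0.33 to -0.19 with a population or library left out. mir-16 in ERH cells was 0.028 under total counts and -0.0016 under spike-ins; under spike-ins it was -0.057 in SAFB cells and 0.055 between knockouts. The mir-15b to mir-16 ratio between knockouts, 0.24, passed with batch as a replicate block (exact p = 0.046), and ran from 0.16 to 0.30 with a population or library left out. The replicate block changed no other call. With one left out, mir-15b over spike-ins between knockouts ran from -0.023 to 0.55, and mir-16 over spike-ins from -0.38 to 0.34 in SAFB, -0.36 to 0.36 in ERH and -0.26 to 0.31 between them, none of these passing. With one left out and relative to mir-425 and mir-191, given as values alone, mir-15b ran from 0.46 to 0.98 in ERH against control and from -1.05 to -0.77 in ERH against SAFB, and mir-15a from 0.21 to 0.47 in ERH against SAFB. The cause was not tested. Calls over all precursors were 84 higher and 69 lower in SAFB cells but 44 and 58 under spike-ins; in ERH cells 72 and 75, but 108 and 33 under total counts and 72 and 19 under spike-ins; between knockouts 65 and 43, but 115 and 8, and 111 and 1. Population means, 2 against 2, cannot pass a permutation test, so for them size and sign alone were compared, which speaks to no call. Depth limits mir-15a most, at 263 counts in the lowest library.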
